A study of Mus musculus with 2 samples.

Results

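The peptide hormones of the islet other than insulin were examined as 8 genes chosen by symbol: Gcg, Sst, Ppy, Pyy, Iapp, Ghrl, Npy and Ucn3. All 8 had a row among the 17245 gene symbols of the deposited table. RNA came from pancreatic islets of mice, isolated by collagenase digestion, picked by hand and then cultured. The groups were KO, in which the labels place loss of cGAS, a sensor of DNA in the cytosol, in β-cells, and wild type (WT). Each genotype had 1 library, so the differences have no replicate check and no p-value was computed. The age, sex and strain of the mice, the promoter that drove recombination and the number of animals behind each library are not stated in the labels. Values are FPKM, which divide the reads or fragments of a gene by its length in kilobases and by the size of the library. This puts genes and libraries on a common scale, but differences between the libraries moved with further scaling and with GC content, as given below.

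Islets hold several endocrine cell types, each known by its main hormone. Alpha-cells make glucagon (Gcg), which raises blood glucose, and delta-cells make somatostatin (Sst), which restrains its neighbours. PP-cells make pancreatic polypeptide (Ppy), and rare epsilon-cells make ghrelin (Ghrl). Beta-cells release amylin (Iapp) together with insulin, and mature mouse beta-cells also make urocortin 3 (Ucn3), which acts on delta-cells. Peptide YY (Pyy) and neuropeptide Y (Npy) belong with pancreatic polypeptide to the NPY family, and in the islet their RNA is found in several endocrine types as well as, for Npy, in nerve fibres.

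The 8 genes lie on 5 chromosomes of the mouse build GRCm38.p6, with positions from RefSeq. Ppy (chr11:102099931-102101319) and Pyy (chr11:102106676-102107832) are tandem neighbours, 5356 bases apart on the minus strand. Npy (chr6:49822710-49829507), Ghrl (chr6:113716119-113719911) and Iapp (chr6:142298425-142303820) are far apart on chromosome 6. Gcg is at chr2:62474530-62483653, Ucn3 at chr13:3940688-3945349 and Sst at chr16:23889573-23891342. The sequences just before the start of 6 of these genes are shown, 5 because they hold a feature that the choice of genes did not use, and that of Npy because it had the widest difference and holds none of the motifs searched. Each line gives the 60 bases before the annotated start, 5′ to 3′ on the gene's own strand, from RefSeq on GRCm38.p6. For Sst the start is the one used in the RefSeq promoter table, which lies inside the gene span given above and not at its end. Capitals mark TATAA, the core of a TATA box, or TGACGTCA, the cyclic AMP response element.
Gcg: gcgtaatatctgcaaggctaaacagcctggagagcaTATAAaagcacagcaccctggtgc
Ppy: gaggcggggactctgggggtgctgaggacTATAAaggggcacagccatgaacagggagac
Pyy: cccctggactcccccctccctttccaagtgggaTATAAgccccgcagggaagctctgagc
Iapp: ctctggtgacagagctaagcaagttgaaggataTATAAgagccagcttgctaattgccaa
Sst: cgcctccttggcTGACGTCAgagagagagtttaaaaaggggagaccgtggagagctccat
Npy: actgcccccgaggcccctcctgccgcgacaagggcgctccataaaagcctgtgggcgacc

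TATAA stood within the 50 bases before the start in 4 of the 8 genes, Gcg, Ppy, Pyy and Iapp, searched on both strands. The same held for 6.71% of 27025 genes with a RefSeq window. TGACGTCA stood within 250 bases before the start of 1 of the 8, Sst, and of 1.60% of all genes, again searched on both strands. It began 48 bases before that Sst start. TAAT, the core recognised by homeodomain proteins, stood within 250 bases in 4 of the 8 (Gcg, Sst, Iapp and Ucn3) and in 55.4% of all genes. These are matches of letters, not measured binding. Between coding transcripts of any pair of the 8 genes, the longest identical stretch was 12 nucleotides, so their reads are separable by sequence, those of the tandem neighbours Ppy and Pyy included. Iapp lies within the span of Slco1a5 without sharing an annotated exon with it. Of the Ghrl exons, 15.7% of the bases are also covered by a gene on the opposite strand, and the labels do not say whether counting used strand.

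Depth was recovered from the values themselves, as described with the processing. The library totals came out as 14537660 reads for the library labelled KO and 19097001 for the WT library. Cgas, the targeted gene, was at 0.521 FPKM for the library labelled KO against 0.205 FPKM for WT (exact 95% interval of the ratio 1.35 to 4.98), from at least 31 reads under the KO label and 16 under WT. Cgas RNA was thus not lower where the label says KO, so that sample is named by its label, and directions are those between the 2 libraries as labelled. The total over a gene cannot tell a deleted exon from an intact one, nor beta-cells from other islet cells. Intervals given here cover counting error only.

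Of the 8 hormone genes, Npy and Pyy were at least 2-fold higher in the library labelled KO and none was at least 2-fold lower, on the log2(FPKM + 1) scale. Both calls were lost, at 0.85 for Npy and 0.30 for Pyy, when the trend of the differences with GC content and length over all genes was subtracted, and 1 gene, Iapp, was at least 2-fold lower under 2 of 4 other scalings. A gene at 1 FPKM or more in at least 1 library counts as expressed, which held for 12428 genes. Of these, 6.98% were at least 2-fold higher, 3.88% at least 2-fold lower and 10.9% past the limit either way. With 8 genes, 2 higher is a small count to set against that share. With the GC and length trend subtracted, 4.30% of all genes were at least 2-fold higher. Under the 2 scalings that took Iapp past the limit, 6.16% and 5.81% were at least 2-fold lower. As deposited, 6 of the 8 lay above 0 and 2 below, with a median log2 difference of 0.58. Over all expressed genes the median was 0.077, with quartiles of -0.35 and 0.51. Of all expressed genes 54.4% lay above 0. Higher genes made up 64.3% of all calls, 57.0% after scaling by the median ratio, 53.5% after scaling to equal sums without the insulin genes, 46.5% after scaling to a sum of 1000000 and 43.7% after scaling without the 20 highest genes. The 6 genes above 0 and the 2 below were the same in sign under each of these scalings. With the GC and length trend subtracted, 4 of the 8 lay above 0 and their median was 0.079, against 0.062 over all genes.

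**Figure D1:**
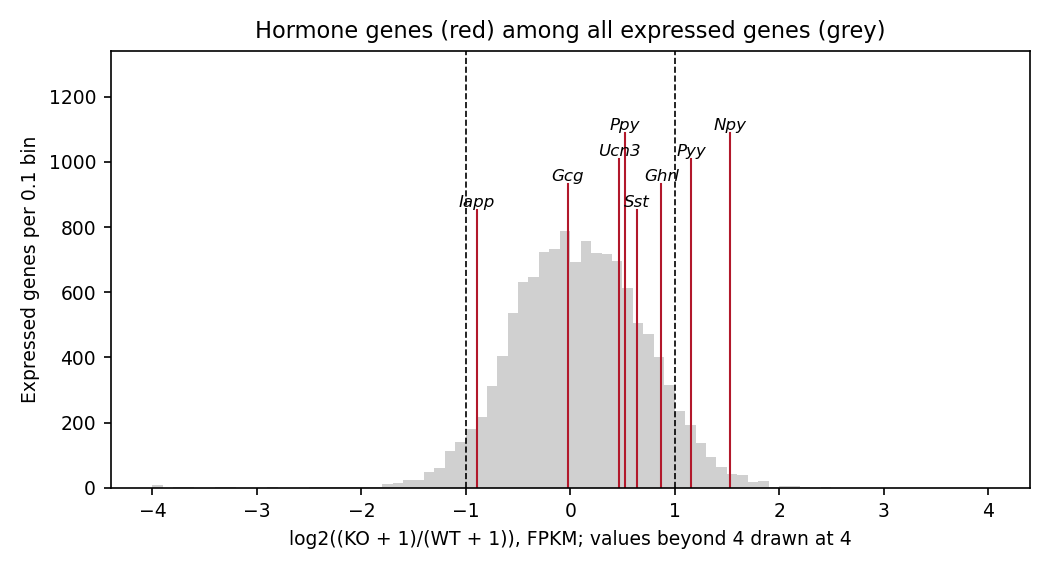
Histogram of log2((KO + 1)/(WT + 1)) in FPKM over 12428 expressed genes in bins of 0.1 (grey), with the 8 hormone genes as red lines and the 2-fold limits dashed. Npy and Pyy lie right of the upper limit, Iapp lies just inside the lower one, and Gcg lies near the middle.

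The hormone genes span more than 3 orders of magnitude in level. In the library labelled KO the order from high to low was Gcg, Iapp, Ppy, Pyy, Sst, Ucn3, Npy and Ghrl. In the WT library it was Iapp, Gcg, Ppy, Sst, Pyy, Ucn3, Npy and Ghrl. The orders differ in 2 places, where Gcg and Iapp and where Pyy and Sst change rank. In the library labelled KO, Pyy and Sst were close, at 4781 FPKM (exact 95% counting interval 4732 to 4832) and 4512 FPKM (4475 to 4549). In the WT library Gcg and Iapp were close, at 27070 FPKM (26999 to 27140) and 29531 FPKM (29371 to 29692). Neighbours in either order did not overlap in their counting intervals, but without replicates the spread between animals is unknown. In each library 5 of the 8 genes were among the 10 highest of all genes, after the insulin genes Ins1 and Ins2.

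**Figure D2:**
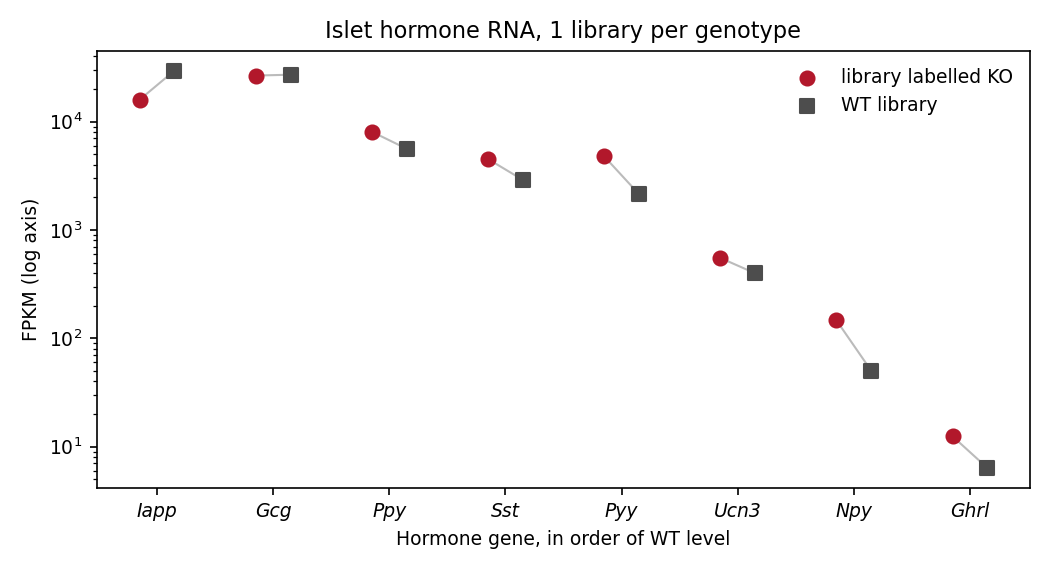
FPKM of each hormone gene on a log axis, with red circles for the library labelled KO and grey squares for the WT library, ordered by the WT level. Iapp is the gene with the clearest downward step in the library labelled KO, and Npy and Pyy show the widest upward steps.

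Glucagon RNA was nearly the same in both libraries. Gcg was at 26588 FPKM for the library labelled KO against 27070 FPKM for WT. The ratio was 0.982 (exact 95% interval 0.978 to 0.986), a log2 difference of -0.026, which stood at percentile 44.0 of all expressed genes. The nearest protein-coding gene, Fap, was at 0.509 FPKM for the library labelled KO against 0.252 FPKM for WT. Alpha-cell markers other than Gcg were spread to both sides of 0. Of 13 expressed markers none was at least 2-fold higher and 1 was at least 2-fold lower, with a median of -0.063. After correction for GC content and length 1 was higher and none lower past that limit. The lower one as reported was Sphkap, an anchoring protein for protein kinase A, at 28.5 FPKM for the library labelled KO against 66.2 FPKM for WT. Tm4sf4, a tetraspanin-like membrane protein, had a log2 difference of -0.71, Gria3, a glutamate receptor subunit, 0.79, and Irx2, a homeodomain factor, 0.68. Gcgr, the glucagon receptor, was at 25.1 FPKM for the library labelled KO against 10.4 FPKM for WT (2.41-fold, 2.17 to 2.67). It falls outside the naming rule and was chosen after its values were seen.

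Somatostatin RNA was higher in the library labelled KO, short of 2-fold, as deposited, but stood at -0.092 after correction for GC content and length. Sst was at 4512 FPKM for the library labelled KO against 2895 FPKM for WT, a ratio of 1.56 (1.54 to 1.58) and a log2 difference of 0.64. Of the 8 genes, Sst alone had the exact letters TGACGTCA within 250 bases before its start. Sites further away or with other letters were not searched. Delta-cell markers other than Sst had none of 8 expressed genes past 2-fold in either direction, with a median of 0.21. With a pseudocount of 0.1 FPKM 2 were higher past that limit, after correction for GC content and length 1 was higher, and under 2 of the 4 other scalings 1 was lower. Hhex, a transcription factor of delta-cells, was at 13.6 FPKM for the library labelled KO against 6.56 FPKM for WT (2.08-fold, 1.75 to 2.47; log2 difference 0.95 with the pseudocount). The retinol carrier Rbp4 had a log2 difference of 0.63, the leptin receptor Lepr 0.77 and the calcium-sensing receptor Casr -0.87. Among somatostatin receptors, Sstr3 was at 54.7 FPKM for the library labelled KO against 66.7 FPKM for WT, and Sstr2 at 3.21 FPKM for the library labelled KO against 2.48 FPKM for WT. Sstr2 and Sstr3 fall outside the naming rule.

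The NPY family differed from member to member. Ppy was at 8056 FPKM for the library labelled KO against 5611 FPKM for WT, a ratio of 1.44 (1.42 to 1.45) and a log2 difference of 0.52. Pyy was at 4781 FPKM for the library labelled KO against 2139 FPKM for WT, a ratio of 2.24 (2.20 to 2.27) and a log2 difference of 1.16. Npy was at 147 FPKM for the library labelled KO against 50.1 FPKM for WT, a ratio of 2.92 (2.53 to 3.39) and a log2 difference of 1.53. As deposited, all 3 genes were higher in the library labelled KO, and the least abundant of them, Npy, had the widest difference. After correction for GC content and length Ppy stood at -0.35, with the sign turned, and neither Pyy at 0.30 nor Npy at 0.85 reached 2-fold. Their log2 differences stood at percentiles 75.6, 95.9 and 98.9 of all expressed genes for Ppy, Pyy and Npy.

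Although Ppy and Pyy are neighbours on chromosome 11, they did not differ by the same factor. Pyy stood at 59.4% of the Ppy level for the library labelled KO against 38.1% for WT, a comparison that no scaling between libraries can move. Mpp2, the annotated gene on the other side of Ppy, encodes a membrane scaffold protein and was at 8.57 FPKM for the library labelled KO against 9.17 FPKM for WT. Markers of PP- and epsilon-cells other than the hormones had none of 6 expressed genes past 2-fold, with a median of 0.063, and 1 past it on the lower side under 2 of the 4 other scalings. After correction for GC content and length their median was 0.57, while Ppy stood at -0.35. Rgs4, a regulator of G-protein signalling, had a log2 difference of 0.50, Sertm1 0.57, Acsl1, an acyl-CoA synthetase, -0.54 and the aminopeptidase Anpep -0.92.

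Npy is also a transmitter of sympathetic nerves, so markers of nerve and glia were set beside it. Of 15 expressed markers none was past 2-fold, 12 lay above 0 and the median was 0.55. With a pseudocount of 0.1 FPKM 2 were at least 2-fold higher, and after correction for GC content and length 1 was. Their summed level was 363 FPKM for the library labelled KO against 297 FPKM for WT. That sum rests mostly on a few genes and was not split by cell type. Uchl1 was at 92.5 FPKM for the library labelled KO against 56.6 FPKM for WT, and Snap25 at 80.5 against 54.8 FPKM. Ddc went the other way, at 64.8 against 99.2 FPKM. The catecholamine enzyme Th was at 9.91 FPKM for the library labelled KO against 12.5 FPKM for WT, and Dbh, the enzyme that makes noradrenaline, was at 0.0904 FPKM for the library labelled KO against 0.0918 FPKM for WT. Among the widest members were Phox2a, a factor of autonomic neurons (0.92), the neuronal filament Prph (0.77) and Uchl1 (0.70). The part of nerve RNA in the Npy difference was not tested. Th, Dbh, Snap25 and Ddc fall outside the naming rule. Ghrl, Pyy and Gcg are also made by gut endocrine cells. Of 9 gut genes with values 8 were below 1 FPKM in both libraries, and the other, the villus protein Vil1, was at 29.9 FPKM for the library labelled KO against 40.6 FPKM for WT.

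Ghrelin RNA was the least abundant of the 8. Ghrl was at 12.5 FPKM for the library labelled KO against 6.35 FPKM for WT, from at least 103 reads under the KO label and 69 under WT. The ratio was 1.96 (1.43 to 2.70) and the log2 difference 0.87, and the interval includes 2-fold. Its acylating enzyme Mboat4 was at 0.0354 FPKM for the library labelled KO against 0.0270 FPKM for WT, too few reads to compare. The ghrelin receptor Ghsr, which delta-cells carry, was at 1.02 FPKM for the library labelled KO against 1.33 FPKM for WT. The nearest genes on either side of Ghrl, the nuclease-like Tatdn2 and the coat protein Sec13, had log2 differences of -0.20 and -0.15. Mboat4 and Ghsr fall outside the naming rule.

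The beta-cell peptides Iapp and Ucn3 differed in opposite directions. Iapp was at 15894 FPKM for the library labelled KO against 29531 FPKM for WT, 1.86-fold lower (1.84 to 1.88), a log2 difference of -0.89 at percentile 5.41 of all expressed genes. Ucn3 was at 551 FPKM for the library labelled KO against 398 FPKM for WT, a ratio of 1.38 (1.35 to 1.42) and a log2 difference of 0.47. Iapp was thus the lowest of the 8 differences, just inside the 2-fold limit. It passed that limit, at -1.04, under scaling to a common sum of 1000000, and again at -1.04 when scaled without the 20 highest genes. Of all expressed genes, 6.16% and 5.81% were at least 2-fold lower under these scalings. Slco1a5, the transporter gene whose span holds Iapp, was at 0.255 FPKM for the library labelled KO against 0.893 FPKM for WT, and its neighbour Slco1a6 had a log2 difference of -0.85.

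Amylin and insulin are packed in the same granules, so Iapp was also set against the insulin genes within each library. Ins1 was at 237131 FPKM for the library labelled KO against 113793 FPKM for WT, and Ins2 at 182558 FPKM for the library labelled KO against 250577 FPKM for WT. Reads of these close copies may be divided uncertainly, so their sum was used. Iapp stood at 3.79% of the summed insulin level for the library labelled KO against 8.10% for WT, a log2 ratio of -1.10. Against Ins2 alone it stood at 8.71% for the library labelled KO against 11.8% for WT, a log2 ratio of -0.44, and against Ins1 alone the log2 ratio was -1.95. Ucn3 stood at 0.131% of the summed insulin level for the library labelled KO against 0.109% for WT. Npy, which mature beta-cells keep low, stood at 0.0349% of it for the library labelled KO against 0.0138% for WT. These ratios to insulin are free of scaling between libraries, but none was corrected for GC content and length.

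Beta-cell markers other than these hormones leaned the way Iapp did and not the way Ucn3 did. Of 14 expressed markers 6 were at least 2-fold lower, against 3.88% of all expressed genes, and none was past the limit upward. In all 10 lay below 0 and 4 above, with a median of -0.52. After correction for GC content and length 4 were at least 2-fold lower and the median was -0.50. Glp1r and Pcsk1, both among the 6, are counted again in the lists of receptors and of processing genes below. Glp1r, the receptor for the incretin that Gcg encodes in gut cells, was at 17.9 FPKM for the library labelled KO against 99.2 FPKM for WT. The fatty-acid receptor Ffar1 had a log2 difference of -2.24, the glucose-6-phosphatase G6pc2 -1.64 and the transcription factor Nkx6-1 -1.38. Mafa, a factor of mature beta-cells, was at 309 FPKM for the library labelled KO against 211 FPKM for WT. Its log2 difference was 0.55 as reported and 0.0094 after correction for GC content and length. Mafa was named after its values were seen. In RNA of whole islets, fewer cells of a type and less RNA per cell cannot be told apart.

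**Figure D3:**
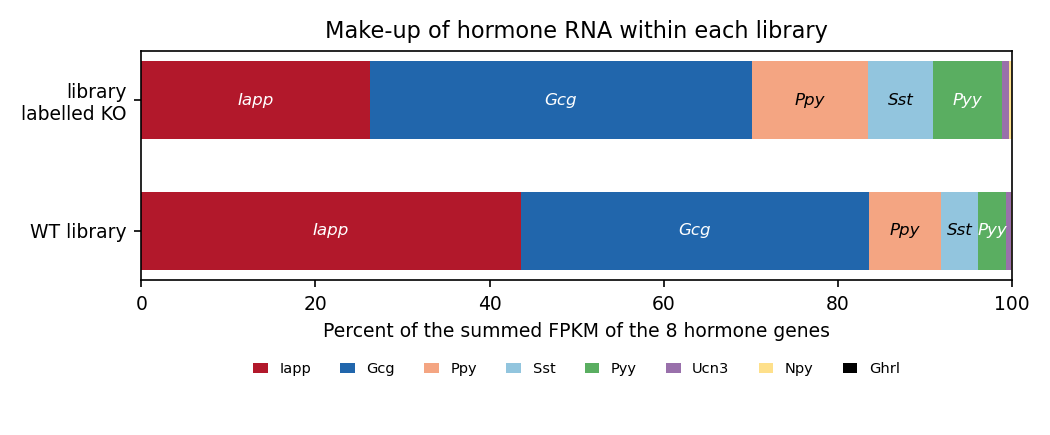
Share of each hormone gene in the summed FPKM of the 8 genes, in percent, as stacked bars for the library labelled KO (top) and the WT library (bottom). Iapp takes 26.3% of the upper bar and 43.6% of the lower one, and Npy and Ghrl are too small to see.

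The make-up of hormone RNA within a library does not depend on how the libraries are scaled to each other. Together the 8 genes came to 60542 FPKM for the library labelled KO against 67700 FPKM for WT. Of all listed FPKM that was 8.02% under the KO label and 9.92% under the WT label. The insulin genes held 55.6% for the library labelled KO against 53.4% for WT. Among the 8 genes, Iapp made up 26.3% for the library labelled KO against 43.6% for WT, while Gcg made up 43.9% for the library labelled KO against 40.0% for WT. Ppy made up 13.3% for the library labelled KO against 8.29% for WT. Pyy made up 7.90% for the library labelled KO against 3.16% for WT, and Sst 7.45% for the library labelled KO against 4.28% for WT. Without Iapp in the sum, Gcg made up 59.6% for the library labelled KO against 70.9% for WT, so its share was lower rather than higher. Set against Gcg, Sst stood at 17.0% for the library labelled KO against 10.7% for WT, Ppy at 30.3% for the library labelled KO against 20.7% for WT, and Pyy at 18.0% for the library labelled KO against 7.90% for WT. These shares are free of scaling, but they still carry the trend with GC content and length given below. With that trend removed Gcg stood at -0.084, Sst at -0.092, Ppy at -0.35 and Pyy at 0.30. The higher levels of Sst and Ppy against Gcg thus depend on it.

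The differences moved with the base composition of the transcripts. Over all expressed genes with a known transcript, the log2 difference was correlated with GC content across genes (Pearson's r = 0.40 over 12374 genes of the same 2 libraries, given as a description; genes are not replicates). Iapp and Gcg, the 2 hormones not higher in the library labelled KO, had the lowest GC content of the 8, at 40.5% and 44.8%, and the other 6 lay between 51.2% and 57.3%. Transcripts of the 8 genes were 500 to 1478 nucleotides long, against a median of 3100 over expressed genes. At the GC content and length of each gene the trend over all genes stood at 0.88 for Ppy, 0.86 for Pyy, 0.73 for Sst, 0.68 for Npy, 0.42 for Ghrl, 0.23 for Ucn3, 0.063 for Iapp and 0.058 for Gcg.

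With that trend removed, no hormone gene was at least 2-fold higher, against 4.30% of all genes. Npy stood at 0.85 and Pyy at 0.30, Ghrl at 0.45 and Ucn3 at 0.24. Sst and Ppy changed sign, to -0.092 and -0.35. Gcg stood at -0.084 and Iapp at -0.96. The directions of Sst and Ppy thus depend on this correction, while those of Npy, Pyy, Ghrl, Ucn3, Gcg and Iapp held. The calls of Npy and Pyy did not.

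**Figure D4:**
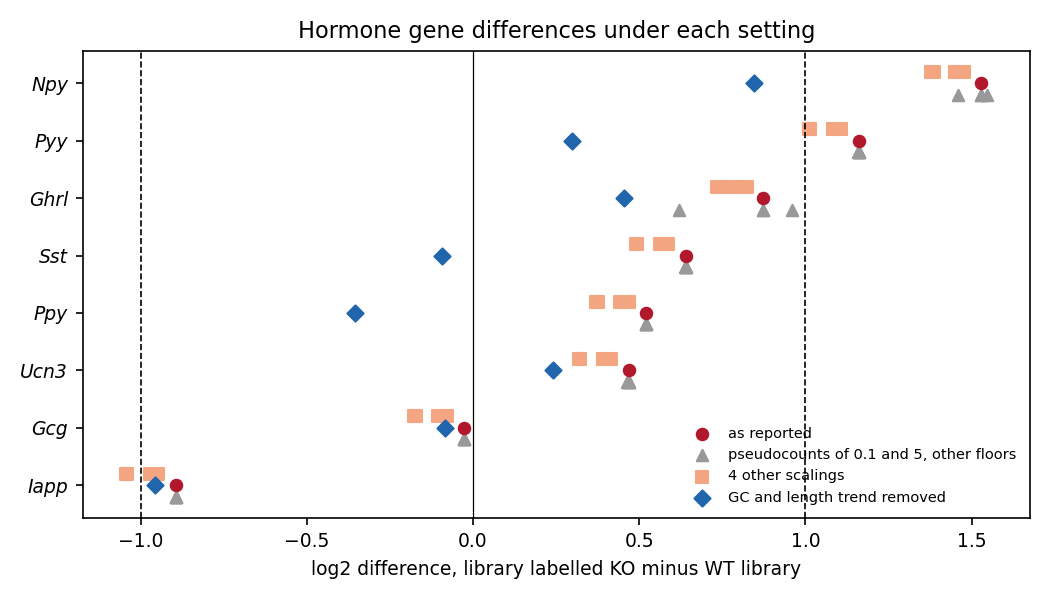
Log2 difference of each hormone gene, library labelled KO minus WT library, as reported (red circles), with other pseudocounts and floors (grey triangles), under 4 other scalings (orange squares) and after removal of the trend with GC and length (blue diamonds). Dashed lines mark the 2-fold limits; the blue diamonds of Sst and Ppy lie left of 0, and those of Npy and Pyy lie inside the limit.

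Other peptide hormone and neuropeptide genes were mostly higher in the library labelled KO. Of 66 listed genes 44 had values and 21 were expressed, of which 6 were at least 2-fold higher, none at least 2-fold lower and 19 above 0. The median was 0.88, against 0.077 over all expressed genes. After that correction the median was 0.31. The count of 6 was 15 with a pseudocount of 0.1 FPKM and 3 with 5 FPKM. Several of the 21, Cort among them, reached 1 FPKM only in the library labelled KO, and none did so only in WT. The floor thus took in more genes on the higher side. Without a floor the median of this list was 0.41, against 0.061 over all genes. Pdyn, the dynorphin precursor, was at 120 FPKM for the library labelled KO against 40.7 FPKM for WT (2.96-fold, 2.80 to 3.12). Npff, which encodes neuropeptide FF, was at 9.41 FPKM for the library labelled KO against 1.17 FPKM for WT (8.01-fold, 4.07 to 17.5). Tac1, the substance P precursor, was at 9.29 FPKM for the library labelled KO against 2.92 FPKM for WT, and Grp, gastrin-releasing peptide, at 6.08 FPKM for the library labelled KO against 1.72 FPKM for WT. Vip, an intestinal and neural peptide, was at 143 FPKM for the library labelled KO against 58.9 FPKM for WT. Cort, the close relative of Sst, had 1.06 FPKM under the KO label and was listed at 0 for WT. Vip and Cort complete the 6 genes past 2-fold and were named after their values were seen. Vip was 2.43-fold higher (2.30 to 2.58), beside 2.92-fold for Npy and 2.96-fold for Pdyn.

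Enzymes and helpers of prohormone processing were mostly lower. Of 11 expressed genes 10 lay below 0 and 1 was at least 2-fold lower, with a median of -0.54. The count of lower genes was 2 with a pseudocount of 0.1 FPKM and under each of the 4 other scalings, and it was 0 after correction for GC content and length, where the median was -0.21. The lower one as reported was Pcsk1, the convertase that cuts proinsulin in beta-cells, at 37.2 FPKM for the library labelled KO against 96.3 FPKM for WT (2.59-fold lower). Pam, which amidates the ends of Npy, Pyy, Ppy and Iapp peptides, was at 56.6 FPKM for the library labelled KO against 114 FPKM for WT, a log2 difference just short of the limit. The convertase Furin had a log2 difference of -0.68. The 1 gene above 0 was Pcsk1n, an inhibitor of Pcsk1, at 773 FPKM for the library labelled KO against 414 FPKM for WT. Pcsk2, the convertase that releases glucagon from its precursor in alpha-cells, was at 609 FPKM for the library labelled KO against 886 FPKM for WT. It was named after its values were seen.

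Receptors were mixed. The list holds receptors of the 8 peptides with their receptor-activity proteins, and also Gipr, whose ligand is not among the 8. Of 21 listed genes 17 had values and 11 were expressed, of which 4 were at least 2-fold higher and 1, Glp1r, at least 2-fold lower, with a median of 0.28. With the GC and length correction 1 receptor gene was at least 2-fold higher and the median was 0.15. Beside Gcgr, the higher ones were Gipr, the receptor for glucose-dependent insulinotropic polypeptide (77.8 FPKM for the library labelled KO against 26.3 FPKM for WT), and the receptor-activity proteins Ramp2 and Ramp3. The Ramp proteins join the calcitonin receptor to form amylin receptors, and both are also made by endothelial cells. Ramp2 was at 46.9 FPKM for the library labelled KO against 18.9 FPKM for WT, and Ramp3 at 15.5 FPKM for the library labelled KO against 4.92 FPKM for WT. Crhr2, the receptor for urocortin 3, was at 1.07 FPKM for the library labelled KO against 0.622 FPKM for WT, and was named after its values were seen.

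Markers of other cell types also differed between the libraries, in both directions. All 12 expressed genes of the acinar list lay past 2-fold on the lower side, with a summed level of 127 FPKM for the library labelled KO against 2012 FPKM for WT. All 10 endothelial markers lay above 0, 5 of them past 2-fold, with sums of 696 FPKM for the library labelled KO against 303 FPKM for WT. All 10 macrophage markers lay above 0, 6 of them past 2-fold, with sums of 736 FPKM for the library labelled KO against 327 FPKM for WT. After correction for GC content and length 2 macrophage markers were past 2-fold and their median was 0.56, against 1.13 as reported. In these lists no gene was at 0 in both libraries. The part of these cells in the hormone differences was not tested.

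**Figure D5:**
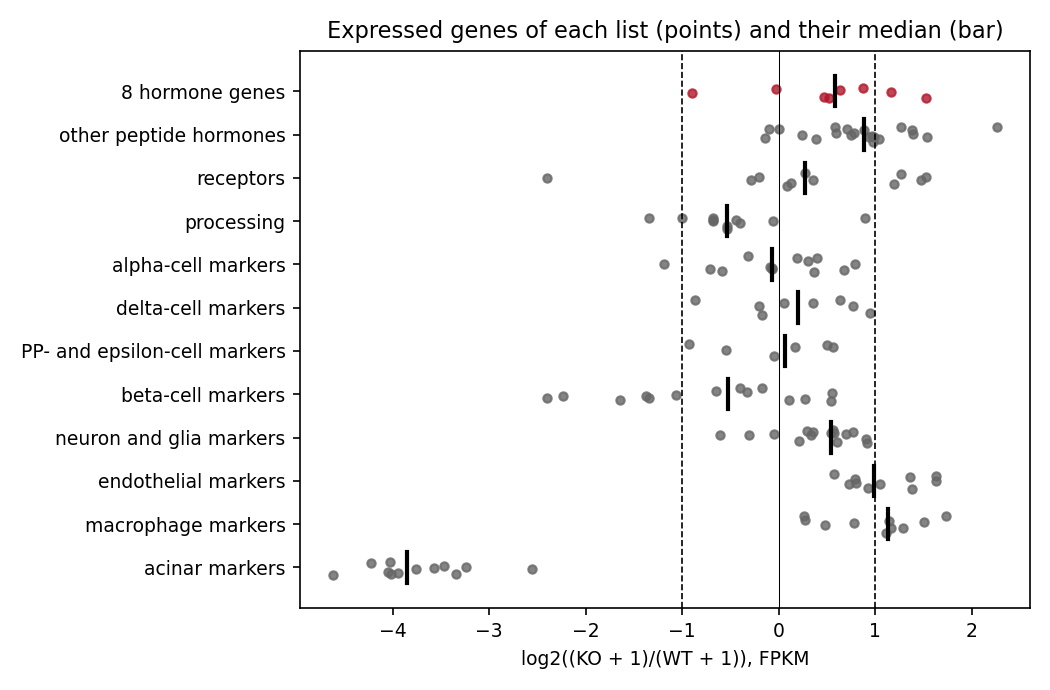
Log2((KO + 1)/(WT + 1)) in FPKM for each expressed gene of the hormone set (red) and of 11 other lists (grey), with black bars for medians and dashed lines at the 2-fold limits. The other peptide hormones lie mostly right of 0, the processing genes mostly left, and the acinar markers far left, all below -2.

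Genes with the most similar pair of levels were found by distance in the plane of both log2(FPKM + 1) values, which rests on 2 libraries only. Npy was nearest to Ly6a, a GPI-anchored surface protein (150 FPKM for the library labelled KO against 53.0 FPKM for WT, distance 0.085), and then to the kinase gene Clk1 (distance 0.15). Ucn3 was nearest to the ribosomal protein gene Rps14 (distance 0.053), and Ghrl to Tnp2 (0.037) and Fcgrt (0.043). The 8 hormone genes themselves were left out of this search, and few other genes reach the level of the remaining 5. Ppy was nearest to the granin Chga at 6268 FPKM for the library labelled KO against 7143 FPKM for WT (distance 0.50), and Pyy to Resp18, a secretory granule protein (distance 1.31). Chga was also the nearest of these genes for Sst, Gcg and Iapp, at distances of 1.39, 2.84 and 2.45. The second in order was Resp18 for Sst and Ppy, the ribosomal protein gene Rpl41 for Pyy, and Ins1 for Gcg and Iapp.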

How the data were processed

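The authors deposited 1 table of FPKM values with 1 column per library, on build GRCm38 (mm10) per the submitters' processing notes. No label names the aligner, counter, annotation or filters (not given in the sources used here). Per the labels' protocols, total RNA went into a SMARTER mRNA library kit. No scaling was added to the FPKM values. A difference is log2((KO + 1)/(WT + 1)), so the pseudocount is 1 FPKM and changes of low genes are understated. A gene counted as expressed at 1 FPKM or more in at least 1 library, and the limit was 2-fold on the log2 scale.

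Library totals were found by a scan for whole numbers under which reads and gene lengths (60 to 30000 nucleotides) come out whole. This held for 17178 of 17245 genes (99.6%) with a tolerance of 1e-05 reads plus 1e-09 per read, compared with 1.5% of 1000 pairs of values from different genes. From the smallest such reads came exact Clopper-Pearson 95% intervals of ratios and exact Poisson intervals of levels. True reads may be a multiple, so intervals can be too wide, and reads without molecular identifiers are not independent molecules. A count test was not run, because there is no replicate. The procedure was tested on simulated data.

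For 12374 expressed genes (99.6%), base composition and length were read from GENCODE M21, using the longest coding transcript. The trend was removed by lowess (fraction 0.3, 3 iterations, statsmodels 0.14.6), keeping the median of all genes. Python 3.11.15 and scipy 1.17.1 were used. Genes were named as the 8 hormones, Cgas, Ins1 and Ins2, the up to 4 widest members of each list, the 2 genes nearest in level and the nearest annotated neighbours, except where said. Acinar, endothelial and macrophage genes that the rule also takes are given as sums. A few genes picked this way are not reported here. The 8 genes and the lists were chosen with earlier results of these data known.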

Additional observations from a re-analysis of the deposited data

How the results depend on the processing

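Alternatives were pseudocounts of 0.1 and 5 FPKM, no floor, a floor of 5 FPKM, 4 scalings and removal of the GC and length trend. For the 8 hormone genes, the 2 counts and their median, 90 of 99 recomputed values kept their direction and their side of the 2-fold limit, or stayed within 1.5 times for counts. The floor does not enter these values. Those without a floor and with a floor of 5 FPKM were therefore the same in advance and are no check. The median of the 8 kept its sign but was 0.079 with the trend removed, against 0.58 as reported. Of the values of the other lists and of the shares in the hormone sum, 266 were kept in the same sense, 34 moved, the shares without Iapp among them, 5 changed sign, 3 passed and 3 lost the 2-fold limit. With the trend removed, Sst was at -0.092 and Ppy at -0.35, both with the sign turned, Pyy at 0.30 and Npy at 0.85 were short of 2-fold, and 0 genes were at least 2-fold higher. Scaled to a sum of 1000000, and scaled without the 20 highest genes, Iapp was at -1.04 and 1 gene was at least 2-fold lower. These 2 scalings moved the median of all genes from 0.077 to -0.039 and -0.059. The cause of these shifts was not tested. The median of PP- and epsilon-cell markers turned to -0.016 without a floor, -0.044 with a floor of 5 FPKM, and -0.052 and -0.054 under the same 2 scalings, and that of delta-cell markers to -0.077 when scaled to a sum of 1000000. Over all settings Gcg lay between -0.18 and -0.026, Iapp between -1.04 and -0.89, and Npy between 0.85 and 1.55. No paired analysis was possible because there is 1 library per genotype, and leaving out a library leaves no comparison. Depth limits Ghrl most, with at least 103 reads in the library labelled KO and 69 in WT.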
